A study of Mus musculus with 11 samples.

Results

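Gene expression was compared between mouse embryonic fibroblasts (MEFs) that carry Trex1 p212fs, a change that by its name is a frameshift, and MEFs that carry Trex1 D18N, a change in the active site of the TREX1 enzyme. The comparison used the 2 p212fs libraries and the 3 D18N libraries of an RNA-seq series of 11, chosen by the genotype in their labels. The other 6 libraries were 3 of Trex1-/- and 3 of wild-type (WT) MEFs. They entered the filter on low counts, the scaling, the estimate of the spread and the side-by-side values. All groups were MEFs with no treatment named, grown from embryos of day 13.5 and collected at passage 2. The labels do not give the strain, do not say whether p212fs and D18N are on one or both alleles, and name both primary and spontaneously immortalized MEFs without saying which each library is. Whether a genotype's libraries stem from different embryos or dishes is not stated either, so a p-value here reflects only how far these particular libraries vary, which may be technical.

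TREX1 is an exonuclease that removes DNA from the cytosol. Where DNA persists there, the sensor cGAS makes a messenger that activates STING, and STING drives type I interferon and the genes that interferon switches on. D18N leaves a protein that binds DNA and cuts it poorly, and in people it causes familial chilblain lupus. Frameshifts in the later part of human TREX1 can leave the catalytic domain and remove the tail that holds the protein at the endoplasmic reticulum. Whether p212fs leaves the catalytic domain whole is not given in the labels. MEF cultures are mixed connective tissue cells of the whole embryo body and can hold muscle precursors, cartilage precursors and macrophages.

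The mouse Trex1 reference has 1 coding exon of 314 codons on the minus strand of chromosome 9 (GRCm38, GENCODE M21). The 2 stretches below are shown because they hold the codons that the genotype names point to, with the codon in capitals, written 5′ to 3′ on the coding strand. The labels do not give the base changes or say that the numbering is that of this transcript.
Codon named by p212fs (chr9:109058256-109058318): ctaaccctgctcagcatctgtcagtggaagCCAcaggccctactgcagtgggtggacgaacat
Codon named by D18N (chr9:109058838-109058900): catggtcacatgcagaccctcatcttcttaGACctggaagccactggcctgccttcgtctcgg

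Trex1 had 0 counts in all 11 libraries, so the counts check no genotype label. The gene lies at chr9:109057933-109059734, and 100% of its exonic bases fall within exons of Atrip, a kinase partner gene on the same strand. Atrip had 21 and 19.3 counts per 1000000 counts (CPM) in p212fs, against 19.2, 17.4 and 20.1 CPM in D18N. CPM are scaled to the library total after TMM correction. They are not divided by gene length, so levels are compared between libraries and not between genes.

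The p212fs libraries held 17868776 and 18515214 counts, and the D18N libraries 17646873, 18078706 and 17946122. Both p212fs libraries had Y-linked transcripts and almost no Xist, as D18N replicates 2 and 3 did, while D18N replicate 1 was the reverse. Ddx3y, a Y-linked RNA helicase, stood at 52.1 and 60.2 CPM in p212fs, against 0, 77.5 and 80.0 CPM in D18N. Xist, the RNA that coats the inactive X, stood at 0 and 0.0519 CPM in p212fs, against 1044, 0.0569 and 0 CPM in D18N. The comparison without D18N replicate 1 is therefore one between libraries of a single sex pattern. It called 5661 genes, of which 5352 were called in the same direction with it; these are 81.4% of the calls with it and 94.5% of those without it.

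Of 16990 genes tested, 3153 were higher in p212fs than in D18N and 3418 lower at an adjusted p under 0.05 (edgeR quasi-likelihood test, Benjamini-Hochberg), which is 18.6% and 20.1% of them and 38.7% together. The median log2 fold change over all genes was -0.03. The libraries of p212fs and D18N did not overlap in 69.8% of genes. At least 2-fold changes numbered 1077 higher and 2026 lower. Shares of a gene list in the fit of all 11 libraries are read beside these shares. List counts from other fits are not, since these shares were not taken from those fits. Leaving out p212fs replicate 1 gave 2674 calls and leaving out p212fs replicate 2 gave 3230; each leaves 1 p212fs library, which is then assumed to vary like the other groups.

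The fold changes moved with gene length. Across 11308 genes with a mean of at least 5 CPM, the Spearman correlation of the log2 fold change with exonic length was -0.53, a description across genes, which share libraries and are not replicates. The median log2 fold change was 0.56 for genes up to 1000 bases and -0.59 for genes over 9000 bases. Taken as each library's deviation from the mean of all libraries, the correlation was -0.52 and -0.52 in p212fs, 0.30, 0.36 and 0.37 in D18N, and -0.50, 0.30 and -0.23 in WT, so it varied within a genotype too. An offset for length and GC content, added after the data were seen, left 5683 calls, of which 4318 were shared in direction; these are 65.7% of the calls without the offset and 76.0% of those with it. Its part in single results was not tested further than by this offset, and list counts that it moved by over 1.5 times are given beside the list.

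The 4 genes that mark the comparison came with it, and such markers may be picked by their difference in these same libraries. Their values describe the libraries and are not separate support for a difference. None of the 4 overlapped between p212fs and D18N libraries, as was so for 69.8% of all genes. Psrc1, a spindle protein gene that p53 activates, had 149.7 and 145 CPM in p212fs, against 27.6, 33.8 and 30.3 CPM in D18N. Col6a3, a chain of the microfibril collagen VI, had 168 and 225 CPM in p212fs, against 2818, 3134 and 3102 CPM in D18N. Both p212fs libraries were above every D18N library for Psrc1 and far below them for Col6a3. Gusb, the lysosomal enzyme beta-glucuronidase, had 132 and 120.3 CPM in p212fs, against 53.1, 52.9 and 62.6 CPM in D18N. Myh3, the embryonic myosin heavy chain of skeletal muscle, had 2.62 and 1.87 CPM in p212fs, against 556, 224 and 239 CPM in D18N. Gusb was higher in both p212fs libraries and Myh3 was near the lowest levels of the assay there. The log2 fold changes were 2.27 ± 0.14 for Psrc1, -3.94 ± 0.23 for Col6a3, 1.17 ± 0.12 for Gusb and -7.24 ± 0.60 for Myh3 (± SE), with adjusted p of 1.13e-05, 1.13e-05, 1.25e-04 and 8.95e-05 in that order (edgeR).

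**Figure D1:**
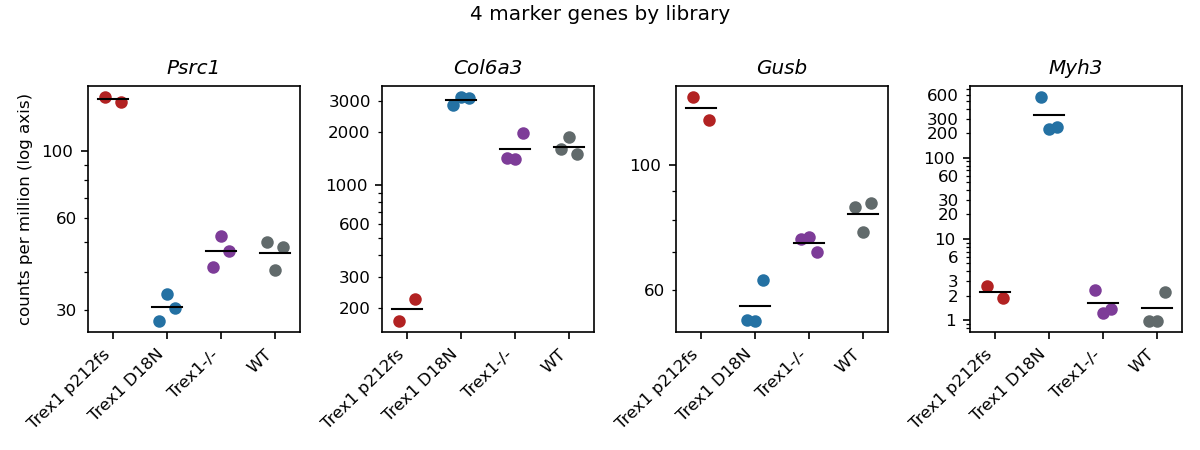
CPM (log axis) of Psrc1, Col6a3, Gusb and Myh3 in each library (points) with the group mean (line), for p212fs, D18N, Trex1-/- and WT. The p212fs points lie outside the WT range for Psrc1, Col6a3 and Gusb, and the D18N points stand apart from all others for Myh3.

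Sex pattern was not matched in the comparisons with WT. Across WT, Xist ranged from 425 to 903 CPM and Ddx3y stayed at 0, the pattern of D18N replicate 1. Every p212fs value against WT thus also sets opposite sex patterns side by side, and D18N values do so through replicates 2 and 3. The part of sex pattern in the values and counts against WT was not tested. Set against WT, which both comparisons share, the 4 markers took different courses. Psrc1 was higher than WT in p212fs (1.67 ± 0.14, adjusted p = 1.39e-04) and lower in D18N (-0.60 ± 0.13, adjusted p = 0.00940, log2 fold change ± SE). Col6a3 was lower than WT in p212fs (-3.06 ± 0.22, adjusted p = 5.14e-05) and higher in D18N (0.88 ± 0.17, adjusted p = 0.00607). Gusb was higher in p212fs (0.62 ± 0.12, adjusted p = 0.00640) and lower in D18N (-0.54 ± 0.11, adjusted p = 0.00628). Myh3 had 0.67 ± 0.57 in p212fs (adjusted p = 0.444) and was higher than WT in D18N (7.91 ± 0.52, adjusted p = 4.44e-05). WT libraries had 0.979, 0.978 and 2.23 CPM of Myh3, close to the p212fs libraries.

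**Figure D2:**
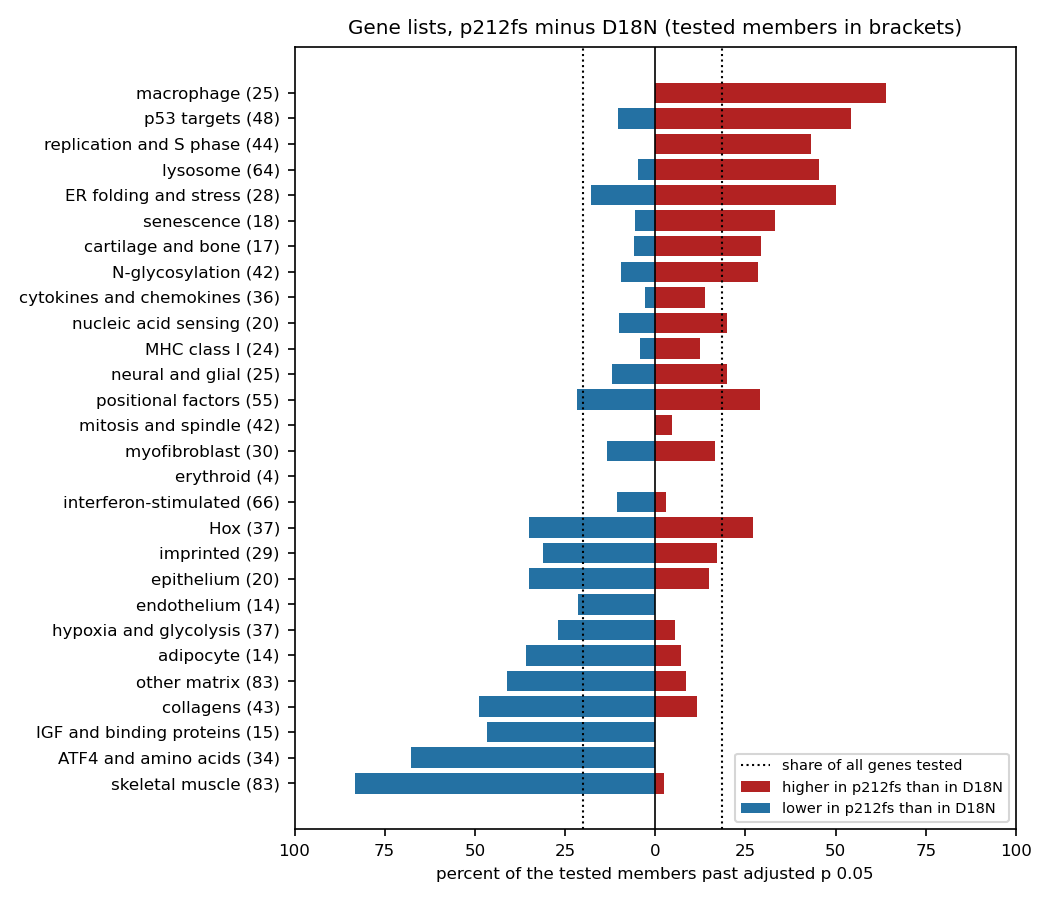
Percent of the tested members of each gene list that were higher (red, right) or lower (blue, left) in p212fs than in D18N at adjusted p under 0.05, with the shares over all genes as dotted lines (18.6% higher, 20.1% lower). Skeletal muscle and ATF4 genes reach furthest to the lower side, and macrophage and p53 genes to the higher side.

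Among the genes with the highest fold changes, p212fs libraries were higher in Col2a1, the main collagen of cartilage, with 566 and 400.1 CPM in p212fs, against 2.39, 2.10 and 1.36 CPM in D18N. Perp, a p53 target of cell junctions, had 42.6 and 26.3 CPM in p212fs, against 1.59, 1.42 and 1.47 CPM in D18N. Cd80, a costimulatory ligand for T cells, had 29.6 and 27 CPM in p212fs, against 0.795, 2.22 and 1.42 CPM in D18N. The naming rule takes genes of highest fold change or CPM difference only if they pass the threshold and their libraries do not overlap. By this choice the lowest p212fs library was over the highest D18N library in these 3 genes. The log2 fold changes were 7.95 ± 0.81, 4.52 ± 0.35 and 4.25 ± 0.33, with adjusted p of 2.35e-04, 3.99e-05 and 3.99e-05 (edgeR). Sprr2b, an epidermal envelope protein, had 6.71 and 5.55 CPM in p212fs and 0 counts in all D18N libraries, so it was at least 108-fold higher, taking 3 counts over the D18N group as the floor. Elobl, Mcpt8, Ntf3, Hmx1, St14 and Col9a1 completed the 10 with the highest fold changes. Of these, Mcpt8 is a basophil protease, Ntf3 a neurotrophin and St14 the membrane protease matriptase.

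Ftl1, Spp1, Tmsb4x, Calr, Fth1 and Ctsd had the 6 largest CPM differences among the genes that were higher in p212fs by the naming rule; Calr and Ctsd are described with their lists. Ftl1, the ferritin light chain, had 2273 and 2082 CPM in p212fs, against 546, 516 and 620.1 CPM in D18N. Fth1, the ferritin heavy chain, had 1677 and 1738 CPM in p212fs, against 818, 479 and 532 CPM in D18N. As the naming rule requires, both p212fs libraries were above all D18N libraries in each, with adjusted p of 1.99e-04 and 0.00428 (edgeR). Ftl1 is uncertain, because 26.5% of its exonic bases are shared with a gene on the opposite strand and ferritin has near-identical copies. Spp1, the secreted phosphoprotein osteopontin, had 2024 and 1895 CPM in p212fs, against 293, 662 and 497 CPM in D18N (adjusted p = 0.00966). Of its exonic bases 18.8% are shared with a same-strand gene, and without p212fs replicate 1 its adjusted p was 0.0538. Tmsb4x, which binds actin monomers, had 2200.4 and 2117 CPM in p212fs, against 453, 926 and 1016 CPM in D18N (adjusted p = 0.00498).

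Among the 29 lists, skeletal muscle had the highest share of members lower in p212fs. Of 89 listed genes 83 were tested, and 69 were lower and 2 higher in p212fs than in D18N. Their median log2 fold change was -4.85, beside -0.03 over all genes. Many passed the filter on low counts only through D18N and had to differ; among the 44 with at least 10 counts in 2 libraries of each genotype, 32 were lower and 2 higher, beside 18.5% lower and 20.7% higher of all genes so chosen. In bulk libraries, fewer muscle cells and less RNA per cell cannot be told apart.

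The lower muscle genes included regulators of muscle fate and parts of the finished fibre. Myod1, the factor that commits cells to muscle, had 0.0545 and 0.0519 CPM in p212fs, against 20.6, 9.61 and 7.32 CPM in D18N. With 2 counts in the p212fs libraries together, its counts per library in D18N were 235 times those in p212fs (95% counting interval 64.9 to 1947). Intervals and floors of this kind cover counting error only. Myog, the factor that starts terminal differentiation, had 1.04 and 0.830 CPM in p212fs, against 56.8, 24.5 and 23.4 CPM in D18N (log2 fold change -5.22 ± 0.59, adjusted p = 2.31e-04); Myog and the other genes named outside the naming rule of the methods were picked after their values were seen. Within the list, 4 of 7 tested myogenic regulators, 7 of 10 fusion and surface genes, 36 of 38 sarcomere genes, 15 of 19 synapse and excitation genes and 7 of 9 energy supply genes were lower in p212fs. Among those with counts in both genotypes, the lower ones were 2 of 4, 3 of 6, 17 of 19, 8 of 12 and 2 of 3 in the same order.

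Sarcomere genes had the lowest median log2 fold change of the roles in the list, at -5.22. This median includes members that passed the filter on low counts only through D18N. Of the genes named in this paragraph, only Neb had at least 10 counts in both p212fs libraries. Myh8, the perinatal myosin heavy chain, had 0.218 and 0.311 CPM in p212fs, against 346, 115 and 130.4 CPM in D18N (log2 fold change -9.50 ± 0.73). Neb, the thin-filament ruler nebulin, had 0.654 and 0.986 CPM in p212fs, against 102, 50.6 and 55.5 CPM in D18N (log2 fold change -6.38 ± 0.46). Ttn, the giant sarcomere spring titin, had 1.25 and 0.363 CPM in p212fs, against 219.5, 93.3 and 90.0 CPM in D18N (log2 fold change -7.38 ± 0.78). D18N replicate 1 was the highest library in all 3 genes, and D18N replicates 2 and 3 were still far above both p212fs libraries in each. Myh4, an adult fast myosin, had 0 counts in both p212fs libraries and was at least 145-fold lower there; it had 23.5, 7.62 and 3.52 CPM in D18N. Tmem182, a muscle membrane protein, also had 0 counts in p212fs and was at least 74.5-fold lower.

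The 2 list members that were higher in p212fs are also expressed outside muscle. Jam3, a junction adhesion molecule, had 47.7 and 49.2 CPM in p212fs, against 32.5, 27.9 and 30.5 CPM in D18N (adjusted p = 0.00490). Tpm2, a tropomyosin of smooth and skeletal muscle, had 566 and 502 CPM in p212fs, against 301, 317 and 348 CPM in D18N (adjusted p = 0.0458). The higher count was 1 without any single p212fs or D18N library, with the length offset and with the sex pattern as a term. The summed CPM of the list, of which Tpm2 alone held 566 and 502 in p212fs, were 1182 and 1096 in p212fs, 5257, 2697 and 2759 in D18N, and 1198, 931 and 1091 in WT. Against WT, 5 members were higher and 2 lower in p212fs, with a median log2 fold change of 0.60, and 71 were higher and 1 lower in D18N. Members that passed the filter on low counts only through D18N had to be higher there than in WT as well. They were not counted apart. Of all genes tested, 8.13% were higher and 8.95% lower than WT in p212fs, and 12.2% were higher and 13.2% lower in D18N, which is the background for every count against WT given here.

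**Figure D3:**
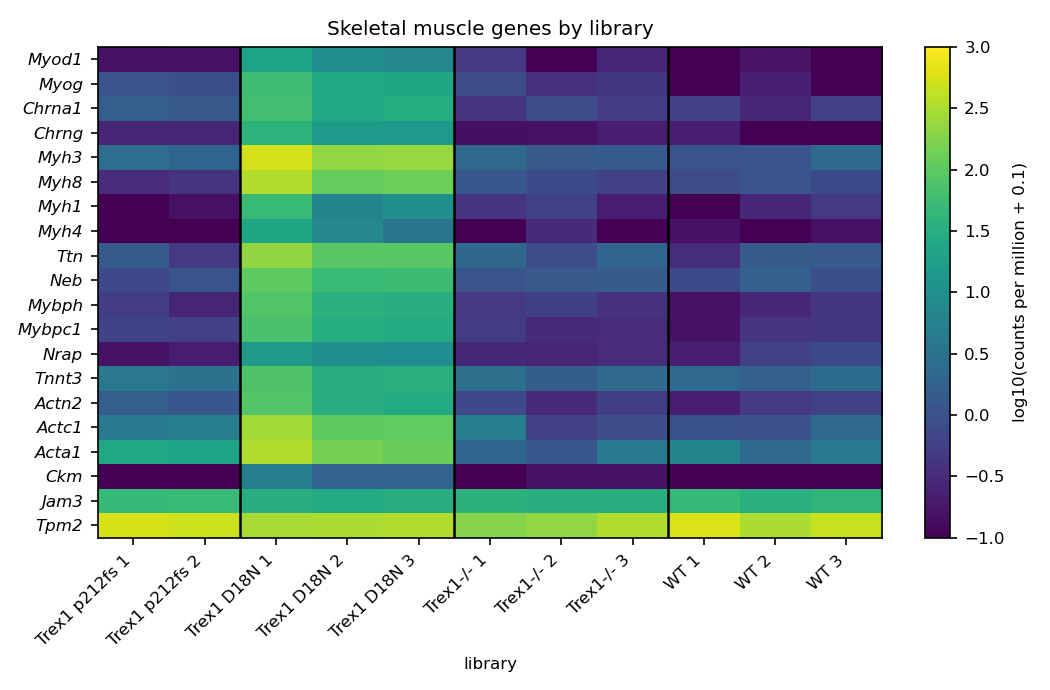
Level of 20 skeletal muscle genes, as log10(CPM + 0.1), in each of the 11 libraries, with black lines between genotypes. The 3 D18N columns stand out in every row except the last 2, Jam3 and Tpm2, and D18N replicate 1 is the brightest column of the rows in which they do.

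Promoters of the muscle genes were searched for CAGCTG, a form of the E-box that MyoD and myogenin bind, in the 250 bases before the start that RefSeq gives (GRCm38.p6). It was present in 29 of the 61 members with a promoter in the table (47.5%), against 14.7% of all 27025 genes with one. A gene counted if any of its promoters held the motif. CAGCTG reads the same on both strands. A match describes the letters of this window and is not evidence of binding. The promoters of Mybpc1 and Nrap, 2 sarcomere genes lower in p212fs, are shown with the motif in capitals, 5′ to 3′ on the gene's strand.
Mybpc1 (chr10:88605153-88605402, minus strand): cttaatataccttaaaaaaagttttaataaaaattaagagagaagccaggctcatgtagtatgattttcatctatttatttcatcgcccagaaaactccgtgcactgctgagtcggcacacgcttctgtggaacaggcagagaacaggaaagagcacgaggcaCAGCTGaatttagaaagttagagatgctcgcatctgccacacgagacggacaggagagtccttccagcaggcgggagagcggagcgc
Nrap (chr19:56390039-56390288, minus strand): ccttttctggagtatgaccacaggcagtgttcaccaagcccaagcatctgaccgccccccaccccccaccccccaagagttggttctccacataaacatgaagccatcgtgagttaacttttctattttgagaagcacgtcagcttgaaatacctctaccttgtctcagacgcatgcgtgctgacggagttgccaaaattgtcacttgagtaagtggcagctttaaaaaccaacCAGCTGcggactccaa
Mybpc1, a myosin-binding protein, had 0.545 and 0.519 CPM in p212fs, against 70.3, 30.4 and 28.3 CPM in D18N. Nrap, an actin-anchoring protein, had 0.0545 and 0.104 CPM in p212fs, against 15.1, 9.95 and 8.68 CPM in D18N. Neither gene had a p212fs library within reach of a D18N library.

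Collagen genes were lower in p212fs in 21 of 43 tested members and higher in 5; the median log2 fold change was -1.09. Among the 37 with counts in both genotypes 17 were lower and 4 higher. The median exonic length of the list was 7621 bases. Of all genes of 6000 to 9000 bases with a mean of at least 5 CPM, 32.9% were lower and 9.74% higher. With the length offset 19 collagens were lower and 6 higher. Fibroblasts secrete fibril collagens as the bulk of their matrix. Col1a1 had 9577 and 11579 CPM in p212fs, against 30117, 33160.0 and 27054 CPM in D18N. Col1a2 had 4839 and 5978 CPM in p212fs, against 19764, 23724 and 19326 CPM in D18N. Col3a1 had 3041 and 3969.5 CPM in p212fs, against 19328, 14428 and 11423 CPM in D18N. In all 3 the p212fs libraries were the lowest, as the naming rule requires of genes taken by CPM difference. The log2 fold changes were -1.51 ± 0.18, -1.95 ± 0.17 and -2.10 ± 0.25, with adjusted p of 2.61e-04, 6.98e-05 and 2.97e-04 (edgeR).

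The microfibril collagens went furthest, with 5 of 6 lower in p212fs, or 3 of 4 with counts in both genotypes, and a median log2 fold change of -2.25. Col6a1 had 621 and 726 CPM in p212fs, against 2399, 2480.3 and 2097 CPM in D18N, and Col6a2, which joins Col6a1 and Col6a3 in the collagen VI fibre, had 356 and 455 CPM in p212fs, against 1943, 1812 and 1449.9 CPM in D18N. Col15a1, a collagen of basement membrane zones, had 3.33 and 3.37 CPM in p212fs, against 89, 79.3 and 64.2 CPM in D18N (log2 fold change -4.53 ± 0.29, adjusted p = 1.30e-05). Col12a1, which sits on fibrils, had 936 and 1169.5 CPM in p212fs, against 2612, 6708 and 5358 CPM in D18N, with D18N replicate 1 under the other D18N libraries.

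The 5 collagens that were higher in p212fs were Col2a1, Col9a1, Col9a2, Col9a3 and Col10a1, which are all collagens of cartilage. Col9a1 had 10.7 and 13.9 CPM in p212fs, against 0.738, 0.796 and 0.454 CPM in D18N (log2 fold change 4.20 ± 0.52). Col9a2 had 11.4 and 10.1 CPM in p212fs, against 3.52, 2.96 and 1.30 CPM in D18N, and Col10a1, the collagen of hypertrophic cartilage, had 1.85 and 1.14 CPM in p212fs, against 0.0568, 0 and 0.397 CPM in D18N. The cartilage and bone list had 5 higher (Col2a1, Col9a1, Hapln1, Spp1 and Matn4) and 1 lower of 17 tested. The lower one was Runx2, a bone factor, with 21.5 and 22.5 CPM in p212fs, against 40.8, 45 and 40.7 CPM in D18N. Sox9, the master factor of cartilage, had 20.9 and 19.6 CPM in p212fs, against 28.6, 22.1 and 22.7 CPM in D18N (adjusted p = 0.462), and Acan, the main cartilage proteoglycan, had 0.545 and 0.727 CPM in p212fs, against 0.454, 3.01 and 2.10 CPM in D18N (adjusted p = 0.138). Neither passed the test. The cartilage and bone list had 3 higher without p212fs replicate 1 and 3 lower without D18N replicate 1 or with the length offset, and the collagen list had 3 higher without p212fs replicate 1, p212fs replicate 2 or D18N replicate 2.

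The other matrix genes were lower in p212fs in 34 of 83 tested and higher in 7, with a median log2 fold change of -0.61. Postn, a matricellular protein of fibrous tissue, had 463 and 909 CPM in p212fs, against 4632, 6062 and 6274 CPM in D18N (log2 fold change -3.04 ± 0.27, adjusted p = 7.27e-05). Lama1, a laminin chain, had 5.45 and 5.35 CPM in p212fs, against 32.5, 43.9 and 47.4 CPM in D18N. Adamts2, which trims the ends of procollagen, had 77.5 and 103 CPM in p212fs, against 489, 393 and 370.3 CPM in D18N. All p212fs libraries were under all D18N libraries in these 3. The list had 21 lower and 2 higher without p212fs replicate 1, 3 higher without p212fs replicate 2, 4 higher without D18N replicate 3, and 11 higher without Trex1-/- replicate 1 or 2.

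The summed level of the collagen list put p212fs under WT and D18N over it, at 26791 and 31390 CPM in p212fs, 92259, 102020 and 84519 CPM in D18N, and 59430, 66645 and 65398 CPM in WT. Against WT, 18 of 43 collagens were lower and 5 higher in p212fs, and 4 were lower and 9 higher in D18N. Fibroblast markers were present in all 5 libraries, at unlike levels. Pdgfrb had 373 and 376 CPM in p212fs, against 581, 537 and 644 CPM in D18N. Dcn had 418 and 556 CPM in p212fs, against 1084, 723 and 572 CPM in D18N. Both were lower in p212fs without overlap, as were Pdgfra and Thy1. Vim, the mesenchymal filament protein, had 2734 and 2564 CPM in p212fs, against 2144, 2562 and 2798 CPM in D18N. Pdgfra, a growth factor receptor of fibroblasts, had 156 and 233 CPM in p212fs, against 1149.9, 765 and 939 CPM in D18N, and Thy1, a surface glycoprotein, had 81.2 and 114 CPM in p212fs, against 208, 348 and 402 CPM in D18N. Twist2, a factor of dermal fibroblasts, had 56.3 and 60.0 CPM in p212fs, against 25.3, 30.3 and 34.8 CPM in D18N (adjusted p = 0.167), without overlap and without passing. Lum, a small proteoglycan, overlapped with 142 and 223 CPM in p212fs, against 197, 119 and 65.3 CPM in D18N, and Prrx1, a mesenchymal factor, had 333 and 347 CPM in p212fs, against 354, 462 and 442 CPM in D18N. The part of fibroblast identity in the matrix result was not tested. Rn18s, a ribosomal RNA that mRNA kits leave out, had 2844 and 1518 CPM in p212fs, against 6773, 8265 and 8041 CPM in D18N, and lost its call without p212fs replicate 2 (adjusted p = 0.0924).

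p53 targets were higher in p212fs in 26 of 48 tested and lower in 5; the median log2 fold change was 0.73. p53 is a transcription factor that stress switches on and that drives arrest genes, death genes and its own inhibitor. Cdkn1a, the arrest gene p21, had 584 and 515 CPM in p212fs, against 223, 182 and 169.6 CPM in D18N (log2 fold change 1.52 ± 0.26, adjusted p = 0.00162). Ccng1, a cyclin of the p53 loop, had 499.9 and 464 CPM in p212fs, against 139.8, 156 and 174 CPM in D18N. Mdm2, the ligase that degrades p53, had 165 and 156 CPM in p212fs, against 66.2, 67.4 and 68.2 CPM in D18N. The p212fs libraries were above every D18N library in all 3 genes.

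By role, 10 of 11 death genes, 6 of 10 arrest genes, 2 of 4 feedback genes and 8 of 23 repair and metabolism genes were higher in p212fs. Bax, which opens the mitochondrial outer membrane, had 222 and 198 CPM in p212fs, against 76, 61.5 and 77.9 CPM in D18N (log2 fold change 1.55 ± 0.17). Pmaip1, the death gene Noxa, had 72.1 and 59 CPM in p212fs, against 11.6, 15.9 and 12.9 CPM in D18N (log2 fold change 2.28 ± 0.22). Ephx1, an epoxide hydrolase, had 258 and 215 CPM in p212fs, against 60.1, 53 and 45 CPM in D18N (log2 fold change 2.16 ± 0.16, adjusted p = 3.28e-05). The 5 lower members were Ddit4, Apaf1, Trp53cor1, Sesn2 and Rrm2b; Ddit4 and Sesn2 are also in the ATF4 list. The lower count was 1 without p212fs replicate 1, p212fs replicate 2 or D18N replicate 2, and 3 without D18N replicate 1, D18N replicate 3, Trex1-/- replicate 3 or WT replicate 3. Ddit4, an inhibitor of mTOR, had 122 and 127 CPM in p212fs, against 279, 236 and 266 CPM in D18N.

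Against WT, 22 p53 targets were higher and 1 lower in p212fs, and 7 were higher and 10 lower in D18N. Perp had a log2 fold change against WT of 3.98 ± 0.34 in p212fs (adjusted p = 1.65e-04) and -0.54 ± 0.34 in D18N (adjusted p = 0.253). A p53 half-site was found in the promoters of 11 of 39 members (28.2%), against 8.20% of all 27025. That of Ccng1 is shown with the half-site in capitals, 5′ to 3′ on the gene's strand.
Ccng1 (chr11:40755287-40755536, minus strand): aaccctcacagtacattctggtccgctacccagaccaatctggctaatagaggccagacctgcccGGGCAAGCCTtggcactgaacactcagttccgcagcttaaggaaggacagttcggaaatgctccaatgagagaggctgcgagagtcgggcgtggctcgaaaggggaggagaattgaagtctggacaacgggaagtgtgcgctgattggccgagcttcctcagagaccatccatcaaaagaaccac

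The senescence list had 6 higher and 1 lower of 18 tested in p212fs. Hmga2, a chromatin protein of embryonic cells, had 307 and 255 CPM in p212fs, against 62.8, 64.7 and 77.9 CPM in D18N (log2 fold change 2.04 ± 0.14, adjusted p = 2.21e-05). Against WT it had 1.08 ± 0.14 in p212fs (adjusted p = 0.00107) and -0.96 ± 0.13 in D18N (adjusted p = 0.00109). Cdkn2a, the locus of p16 and p19ARF, had 16.2 and 15.2 CPM in p212fs, against 7.38, 7.68 and 8.90 CPM in D18N. The lower member, Cdkn1b, encodes the cyclin kinase inhibitor p27 and had 32 and 37.2 CPM in p212fs, against 74.1, 93.4 and 84.1 CPM in D18N. The calls were 2 higher and 0 lower without p212fs replicate 1.

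Replication and S phase genes were higher in p212fs in 19 of 44 tested and lower in none; the median log2 fold change was 0.85. Ccne1, the cyclin that starts S phase, had 103 and 109.7 CPM in p212fs, against 21, 26.6 and 28.6 CPM in D18N (log2 fold change 2.07 ± 0.29, adjusted p = 7.52e-04). Rpa2, which coats single-stranded DNA, had 45.1 and 44.5 CPM in p212fs, against 15.4, 15.6 and 20.6 CPM in D18N. Orc6, of the origin recognition complex, had 38.3 and 44.6 CPM in p212fs, against 19.3, 22.7 and 24.8 CPM in D18N. The count rested on which libraries entered. It was 36 without Trex1-/- replicate 1, 30 without Trex1-/- replicate 2, and 33 with only the 5 libraries of p212fs and D18N. It fell without either p212fs library, which leaves 1 in the group. Calls over all genes fell in those fits too, and rose from 6571 to 7187 without Trex1-/- replicate 2.

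Mitosis and spindle genes had 2 higher and 0 lower of 42 tested, Spc25 and Cdc20, with a median of 0.49. Spc25, of the kinetochore, had 33.8 and 39.4 CPM in p212fs, against 9.26, 19.4 and 18.4 CPM in D18N, and neither it nor Cdc20 passed without p212fs replicate 1 or without p212fs replicate 2. Cdc20, the activator of mitotic exit, had 102 and 103 CPM in p212fs, against 31.8, 48.9 and 62 CPM in D18N, and also lost its call without D18N replicate 2 and with the length offset. Mki67, a mark of cycling cells, had 121 and 143 CPM in p212fs, against 93.6, 200.4 and 241 CPM in D18N (adjusted p = 0.330), and the groups overlapped. Top2a, which untangles chromosomes, had 191 and 232 CPM in p212fs, against 93.5, 198 and 241 CPM in D18N (adjusted p = 0.633). Against WT, 1 S phase gene was higher and 1 lower in p212fs, and 39 were lower in D18N; for mitosis, 2 were lower in p212fs and 25 in D18N. The mitosis list had 9 higher without Trex1-/- replicate 1 or 2, 4 without D18N replicate 3, 1 without D18N replicate 2, 7 with only the 5 libraries and 7 with DESeq2, and 2 lower without D18N replicate 1.

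Lysosomal genes were higher in p212fs in 29 of 64 tested and lower in 3; the median log2 fold change was 0.39. The lysosome breaks down proteins, lipids and sugars in an acid compartment. Ctsd, the aspartic protease cathepsin D, had 1321 and 1225 CPM in p212fs, against 406, 376 and 401 CPM in D18N, although 34.4% of its exonic bases are shared with another gene on the same strand. Aga, which cleaves sugars from asparagine, had 103 and 95.6 CPM in p212fs, against 42.8, 39.5 and 36.7 CPM in D18N. Lamp1, the main protein of the lysosomal membrane, had 1288 and 1170.1 CPM in p212fs, against 583, 569 and 685 CPM in D18N. No p212fs library reached down to a D18N library in these 3, and the log2 fold changes were 1.69 ± 0.18, 1.32 ± 0.12 and 1.00 ± 0.15.

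By role, 8 of 12 cathepsins, 13 of 34 hydrolases and 8 of 18 membrane genes were higher in p212fs. The 3 lower members were Npc1, a cholesterol carrier, Mitf, a factor that drives lysosome genes, and Ctsk, a collagen-cutting cathepsin. Npc1 had 44.8 and 46.3 CPM in p212fs, against 86.6, 95.8 and 90.5 CPM in D18N. The lower members numbered 7 with only the 5 libraries, 6 with the length offset and 1 without p212fs replicate 1. Against WT, 31 members were higher and 0 lower in p212fs, and 12 were higher and 5 lower in D18N.

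CACGTG, the core of the site that the lysosome factors TFEB and MITF bind, reads the same on both strands. It was found in the promoters of 13 of 53 members (24.5%). The share was 6.86% of all 27025 genes and 9.60% of the 11909 tested genes among them. The Lamp1 promoter is shown because its gene had the smallest p among members past the threshold with the motif. Members that share many exonic bases with another gene were left out of this choice. The promoter holds 4 copies, in capitals, 5′ to 3′ on the gene's strand.
Lamp1 (chr8:13158911-13159160, plus strand): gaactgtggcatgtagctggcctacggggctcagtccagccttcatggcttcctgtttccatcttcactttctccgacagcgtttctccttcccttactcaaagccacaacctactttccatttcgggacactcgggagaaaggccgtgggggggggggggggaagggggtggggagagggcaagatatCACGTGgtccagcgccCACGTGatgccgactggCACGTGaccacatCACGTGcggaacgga

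Macrophage markers moved beside the lysosome list, and the lists share Ctss and Cd68. Of 25 macrophage genes 16 were higher in p212fs and 0 lower, and the median log2 fold change was 1.70. Among the 19 with counts in both genotypes 15 were higher. The median exonic length of the list was 1925 bases. Of all genes of 1000 to 2000 bases with a mean of at least 5 CPM, 54.8% were higher and 3.58% lower. With the length offset 14 macrophage genes were higher and 0 lower. Lyz2, the lysozyme of macrophages, had 397 and 526 CPM in p212fs, against 89.3, 48.1 and 40.5 CPM in D18N. Tyrobp, an adaptor of myeloid receptors, had 6.87 and 6.54 CPM in p212fs, against 1.70, 1.19 and 1.19 CPM in D18N. Csf1r, the receptor that keeps macrophages alive, had 10.3 and 12.4 CPM in p212fs, against 6.02, 4.32 and 4.59 CPM in D18N. All p212fs libraries were above all D18N libraries in these 3.

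The summed macrophage markers were 543 and 710 CPM in p212fs, 155, 85.1 and 79.8 CPM in D18N, and 930, 1173 and 1048 CPM in WT, and their part in the lysosome result was not tested. Against WT, 1 macrophage gene was higher and 8 lower in p212fs, and 23 were lower in D18N. Lyz2 had -0.58 ± 0.32 in p212fs (adjusted p = 0.235) and -3.54 ± 0.31 in D18N (adjusted p = 1.22e-04), as log2 fold change against WT. The macrophage count was 8 without p212fs replicate 2.

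The ER folding and stress list had 14 higher and 5 lower of 28 tested in p212fs. The higher members included chaperones and disulfide isomerases of the ER lumen, and also Derl2 and Selenos, which act in the disposal of misfolded proteins, with log2 fold changes of 0.38 ± 0.12 and 0.50 ± 0.14. Calr, the lectin chaperone calreticulin, had 2351 and 2307 CPM in p212fs, against 964, 1009 and 1168 CPM in D18N (log2 fold change 1.15 ± 0.15, adjusted p = 4.98e-04). Pdia3, a disulfide isomerase that works with it, had 1925 and 1936 CPM in p212fs, against 863, 1065 and 1084 CPM in D18N. Hspa5, the ER chaperone BiP, had 1606 and 1549 CPM in p212fs, against 960.4, 805 and 1149 CPM in D18N. The summed level of the list was 13583 and 13389 CPM in p212fs, 8141, 8881 and 9674 CPM in D18N, and 9756, 9065 and 9719 CPM in WT.

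The 5 lower members were Ern1, Atf6, Sel1l, Herpud1 and Edem1, which sense unfolded proteins or send them for degradation. Ern1, the sensor IRE1, had 11.3 and 10.9 CPM in p212fs, against 57, 57.9 and 47.4 CPM in D18N (log2 fold change -2.28 ± 0.28, adjusted p = 3.02e-04). Against WT, Ern1 had -0.84 ± 0.26 in p212fs (adjusted p = 0.0494) and 1.44 ± 0.23 in D18N (adjusted p = 0.00253). Atf6, the other transmembrane sensor, had 29.8 and 30.5 CPM in p212fs, against 57.9, 80.5 and 64.8 CPM in D18N. The list had 9 higher and 3 lower members without p212fs replicate 1, and 2 lower without p212fs replicate 2.

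N-glycosylation genes had 12 higher and 4 lower of 42 tested. The 5 of 11 oligosaccharyltransferase genes that were higher included Ost4, with 80.2 and 76.5 CPM in p212fs, against 34.4, 39.2 and 48.4 CPM in D18N, and Tmem258, with 64.6 and 65.5 CPM in p212fs, against 39.9, 45.8 and 40.3 CPM in D18N. Both are short genes and neither passed with the length offset, which left 7 higher and 6 lower; 53.2% of the exonic bases of Ost4 are also shared with an opposite-strand gene. Man2a1, which trims mannose in the Golgi, had 107 and 119 CPM in p212fs, against 367, 465 and 496 CPM in D18N (log2 fold change -1.97 ± 0.29). The list had 4 higher without p212fs replicate 1, and the lower count was 1 or 2 without any single library other than WT replicate 1 or 2.

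Genes of the ATF4 amino acid response were lower in p212fs in 23 of 34 tested and higher in none, with a median log2 fold change of -0.69. ATF4 is a transcription factor whose translation rises when amino acids are short or the ER is stressed, and its targets import and make amino acids. Slc7a5, the importer of large neutral amino acids, had 53.7 and 45.6 CPM in p212fs, against 213, 295 and 209 CPM in D18N (log2 fold change -2.27 ± 0.23, adjusted p = 1.26e-04). Trib3, a pseudokinase target, had 31.6 and 27.9 CPM in p212fs, against 159, 198 and 144 CPM in D18N (log2 fold change -2.49 ± 0.27, adjusted p = 1.83e-04). Asns, asparagine synthetase, had 86.1 and 87.9 CPM in p212fs, against 137, 236 and 180.0 CPM in D18N. Atf4 itself had 287 and 276 CPM in p212fs, against 366, 513 and 394 CPM in D18N. The p212fs libraries were the lowest of the 5 in each of these 4 genes.

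Against WT, 26 members were lower and 0 higher in p212fs, and 11 were lower and 3 higher in D18N. Slc7a5 had -2.94 ± 0.24 in p212fs (adjusted p = 1.05e-04) and -0.67 ± 0.19 in D18N (adjusted p = 0.0247). The count of lower members was 13 without p212fs replicate 1 and 15 without p212fs replicate 2. TGATGNAAT, the composite site of ATF4 with a C/EBP partner, was searched on both strands. It was found in the promoters of 5 of 28 members (17.9%), against 0.910% of all 27025 genes. The promoter of Pycr1, a proline synthesis gene with 24.9 and 33.2 CPM in p212fs, against 60.4, 89.1 and 75.5 CPM in D18N, is shown with the site in capitals, 5′ to 3′ on the gene's strand.
Pycr1 (chr11:120643749-120643998, minus strand): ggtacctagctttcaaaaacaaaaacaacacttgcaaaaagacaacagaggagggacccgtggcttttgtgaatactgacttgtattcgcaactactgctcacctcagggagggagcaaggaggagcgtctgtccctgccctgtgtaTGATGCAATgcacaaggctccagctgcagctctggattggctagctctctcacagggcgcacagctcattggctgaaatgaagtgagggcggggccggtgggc

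**Figure D4:**
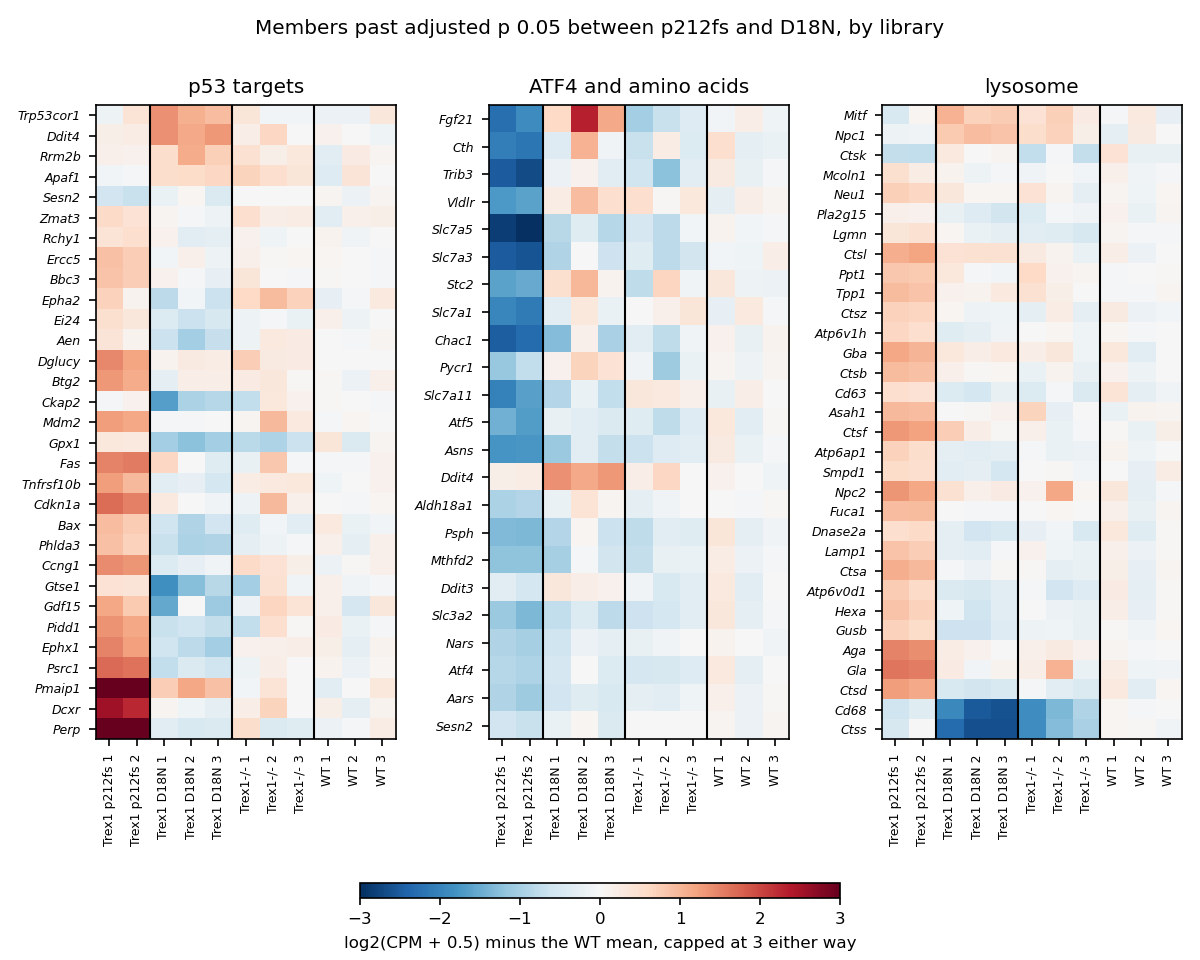
Members of the p53, ATF4 and lysosome lists that passed adjusted p 0.05 between p212fs and D18N, as log2(CPM + 0.5) minus the WT mean in each of the 11 libraries (red higher, blue lower). The 2 p212fs columns are red in most p53 and lysosome rows and blue in nearly all ATF4 rows.

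Hypoxia and glycolysis genes had 10 lower and 2 higher of 37 tested. Vegfa, the vessel growth factor, had 105 and 120.1 CPM in p212fs, against 416, 459 and 391 CPM in D18N (log2 fold change -1.91 ± 0.26). Ero1a, an ER oxidase, had 69 and 73.7 CPM in p212fs, against 228, 281 and 215 CPM in D18N. Ndrg1, a stress-induced gene, had 35.2 and 41.7 CPM in p212fs, against 102, 107 and 129 CPM in D18N. The groups did not overlap in these 3. Against WT, Vegfa had -0.62 ± 0.25 in p212fs (adjusted p = 0.105) and 1.29 ± 0.22 in D18N (adjusted p = 0.00356). The 2 higher members were Higd1a and Gapdh; Gapdh has many near-identical pseudogene copies and its counts are uncertain. The list had 4 lower without p212fs replicate 1, 16 lower with only the 5 libraries, and 1 higher without either p212fs library or without D18N replicate 1 or 2 and with the length offset.

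Interferon-stimulated genes had 7 lower and 2 higher of 66 tested, under the shares over all genes, with a median log2 fold change of -0.26. The count moved with Trex1-/- replicate 2, whose summed level of the list was 17857 CPM, against 2594 to 6639 CPM in the other 10 libraries. Without that library 7187 of all genes were called, against 6571 with it. The shares of 18.6% higher and 20.1% lower belong to the fit of 11 libraries. They are no background for the fit of only the 5 libraries of p212fs and D18N. In that fit cytokines and chemokines also went from 5 to 19 higher. Among interferon-stimulated genes, 23 were lower and 11 higher without Trex1-/- replicate 2. With only the 5 libraries 31 were lower and 16 higher. Without Trex1-/- replicate 1 there were 12 lower and 4 higher, and without either p212fs library 2 lower and 1 higher. The higher members numbered 1 without D18N replicate 2 or 3, 4 without WT replicate 1, 7 with the sex pattern as a term and 0 with the length offset, and DESeq2 called 11 lower. The summed level was 6191 and 5914 CPM in p212fs, 6639, 5414 and 5561 CPM in D18N, and 4432, 2832 and 2594 CPM in WT. Against WT, 5 of the 66 members were higher and 0 lower in p212fs, with a median log2 fold change of 0.85. In D18N 16 were higher and 0 lower, with a median of 1.26. The shares of all genes higher than WT were 8.13% in p212fs and 12.2% in D18N.

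Ifi27l2a, an interferon-induced mitochondrial protein, had 2.02 and 1.66 CPM in p212fs, against 55.1, 41.3 and 29.4 CPM in D18N (log2 fold change -4.51 ± 0.74, adjusted p = 0.00191). Slfn5, a nucleic acid binding protein, had 11.6 and 19 CPM in p212fs, against 87.5, 48.3 and 60.7 CPM in D18N. Ifitm2, which blocks virus entry, had 395 and 403 CPM in p212fs, against 183, 164 and 164 CPM in D18N; it lost its call with the length offset (adjusted p = 0.101) and shares 40.9% of its exonic bases with a same-strand gene. Ifit1, a cytosolic RNA sensor of the interferon response, had 338 and 352 CPM in p212fs, against 191, 140.1 and 141 CPM in D18N (adjusted p = 0.165). Isg15, the ubiquitin-like protein of that response, had 352 and 334 CPM in p212fs, against 217, 204 and 211.8 CPM in D18N (adjusted p = 0.373). Rsad2, the antiviral protein viperin, had 55.8 and 50.4 CPM in p212fs, against 52.5, 40.0 and 36.5 CPM in D18N (adjusted p = 0.817). Ifit1 and Isg15 did not overlap between the groups and did not pass the test, and Rsad2 overlapped. The core of the interferon response element, searched on both strands, was in the promoters of 27 of 52 members (51.9%), against 3.46% of all 27025.

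Among nucleic acid sensing genes, 4 were higher and 2 lower of 20 tested in p212fs. Rnaseh2c, a subunit of the enzyme that removes RNA from DNA, had 64.4 and 63.5 CPM in p212fs, against 16.8, 19.8 and 21.6 CPM in D18N (log2 fold change 1.72 ± 0.25), and the other 2 subunit genes, Rnaseh2a and Rnaseh2b, were also higher. Of the exonic bases of Rnaseh2c, 24.8% are shared with an opposite-strand gene. Irf3, the factor that STING activates, had 64 and 55.7 CPM in p212fs, against 39.5, 42.9 and 44.9 CPM in D18N, and lost its call without p212fs replicate 1, without D18N replicate 1 and with the length offset. Ifi203, of the DNA-binding p200 family, had 13.9 and 15.9 CPM in p212fs, against 124, 97.5 and 84.7 CPM in D18N, and lost its call without either p212fs library. Cgas had 4.85 and 4.98 CPM in p212fs, against 6.30, 6.37 and 10.2 CPM in D18N (adjusted p = 0.277), and Sting1 had 45.3 and 49.2 CPM in p212fs, against 48.4, 57.4 and 55.3 CPM in D18N (adjusted p = 0.456). The higher members numbered 1 without p212fs replicate 1 or D18N replicate 1 and 2 without p212fs replicate 2, without D18N replicate 2 or with the length offset. The lower members numbered 0 without either p212fs library, 1 without any D18N library or WT replicate 2, 4 without Trex1-/- replicate 2 and 7 with only the 5 libraries.

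MHC class I genes, which show peptides to T cells, had 3 higher and 1 lower of 24 tested. The 3 higher were the ER chaperones Calr, Canx and Pdia3, and the lower was H2-T24, with 0.763 and 0.363 CPM in p212fs, against 6.70, 6.60 and 6.92 CPM in D18N; class I chains have near-identical copies and are uncertain. There were 8 higher and 7 lower without Trex1-/- replicate 2, 5 higher and 3 lower without Trex1-/- replicate 1, 5 higher without WT replicate 1, 8 higher and 12 lower with only the 5 libraries, and 3 lower with the length offset. Cytokines and chemokines had 5 higher and 1 lower of 36 tested, with a median log2 fold change of 1.40; among the 30 with counts in both genotypes 3 were higher and 1 lower. Cxcl14, a chemokine of connective tissue, had 101 and 119 CPM in p212fs, against 17.8, 34.2 and 10.1 CPM in D18N (log2 fold change 2.41 ± 0.55). Ccl9 and Ccl4, chemokines of myeloid cells, had log2 fold changes of 2.40 ± 0.37 and 3.94 ± 0.93. Il6 had 33.5 and 28 CPM in p212fs, against 5.85, 9.73 and 8.73 CPM in D18N (adjusted p = 0.270), without overlap and without passing. The count of higher members was 22 without Trex1-/- replicate 2, 13 without Trex1-/- replicate 1, 8 without D18N replicate 1, 19 with only the 5 libraries and 21 with the sex pattern as a term. The lower count was 0 without p212fs replicate 1, p212fs replicate 2 or D18N replicate 1, and 2 without Trex1-/- replicate 2.

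Hox genes, which record the position of a cell along the head-to-tail and limb axes, differed by paralogous group. Of 37 tested, 10 were higher and 13 lower in p212fs. In groups 1 to 8, 10 of 22 were higher and 2 lower, and the median log2 fold change was 0.52. In groups 9 to 13, 0 of 15 were higher and 11 lower, with a median of -2.19; this division was made after the values were seen. All 22 of groups 1 to 8 had counts in both genotypes, but of groups 9 to 13 only 8 had, and 7 of those were lower, with a median of -1.72. Hoxa5, an anterior gene, had 61.8 and 56.2 CPM in p212fs, against 12.1, 7.51 and 13 CPM in D18N (log2 fold change 2.44 ± 0.27, adjusted p = 1.87e-04). Hoxa10, a posterior gene of the same cluster, had 7.36 and 12.2 CPM in p212fs, against 45.9, 56 and 32.3 CPM in D18N (log2 fold change -2.19 ± 0.30).

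Hoxc11 had 0.0545 and 0.0519 CPM in p212fs, against 3.86, 9.78 and 3.23 CPM in D18N, and its counts per library in D18N were 106 times those in p212fs (95% counting interval 29 to 877). Hoxd8 was an exception of the anterior groups, with 12.2 and 12.7 CPM in p212fs, against 36, 33.2 and 33.5 CPM in D18N, as was Hoxd4. With the length offset 6 Hox genes were higher and 14 lower. Against WT, 8 were higher and 11 lower in p212fs, and 3 were higher and 2 lower in D18N.

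**Figure D5:**
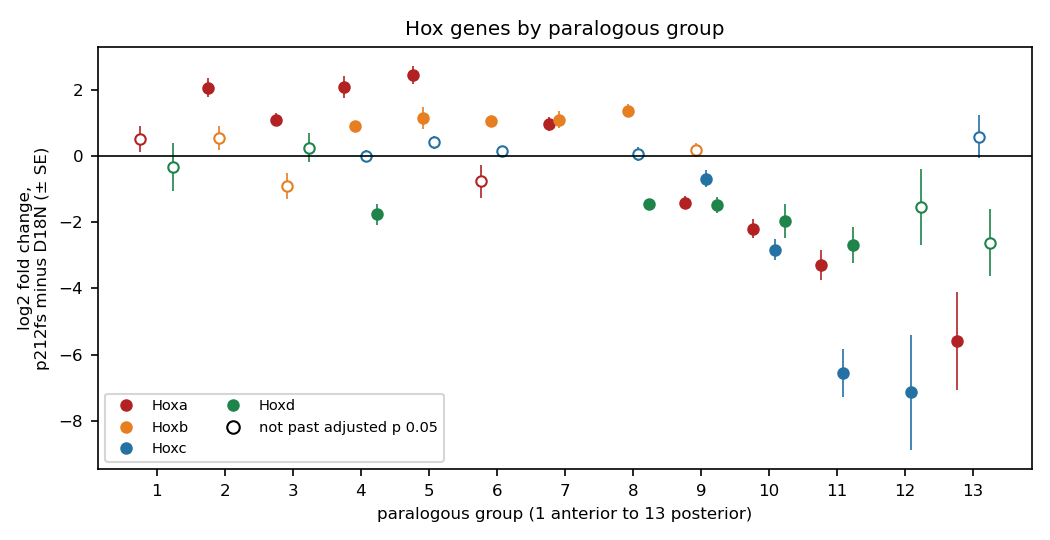
Log2 fold change, p212fs minus D18N, of each tested Hox gene (± SE) by paralogous group from anterior (1) to posterior (13), coloured by cluster, with open points for genes that did not pass adjusted p 0.05. All filled points from group 9 on lie under 0, and the filled points of Hoxa and Hoxb up to group 8 lie over it.

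Other positional factors had 16 higher and 12 lower of 55 tested, or 13 higher and 12 lower of the 49 with counts in both genotypes, with 13 higher and 4 lower of 32 craniofacial and trunk genes and 3 higher and 8 lower of 23 limb genes. Msx2, a factor of skull and limb buds, had 10.2 and 9.14 CPM in p212fs, against 0.795, 0.683 and 0.567 CPM in D18N (log2 fold change 3.82 ± 0.40). Tbx2, a T-box factor, had 37.2 and 32.9 CPM in p212fs, against 15.9, 12.5 and 11.7 CPM in D18N. Wt1, a factor of the embryonic body cavity lining, had 6.22 and 9.19 CPM in p212fs, against 24.6, 20.8 and 24.2 CPM in D18N. The list had 10 higher and 1 lower without p212fs replicate 1, and the lower count was 5 without p212fs replicate 2, 7 without D18N replicate 1 and 6 without D18N replicate 2.

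Markers of other cell types that a MEF culture can hold were counted in the same way, and several of these lists had shares near those of all genes. Of 20 epithelial genes tested 7 were lower and 3 higher in p212fs. Of the 20, 8 had too few counts in one or both genotypes, among them Cldn3, Krt5, Krt17 and Krt14, which are named below. Among the other 12, 2 were lower and 2 higher, beside 18.5% lower and 20.7% higher of all genes so chosen. Perp, described above, had the smallest p of the list and was higher in p212fs, as was Jup, the junction protein plakoglobin, with 112 and 107 CPM in p212fs, against 59.3, 57.6 and 61.5 CPM in D18N. Cldn3, of tight junctions, was higher too, with 4.03 and 2.02 CPM in p212fs, against 0.454, 0.171 and 0.227 CPM in D18N. Krt5, a basal keratin, had 0 and 0.104 CPM in p212fs, against 18, 9.73 and 5.10 CPM in D18N, with counts per library in D18N 206 times those in p212fs (95% counting interval 56.7 to 1703). Krt17 had 0 and 0.104 CPM in p212fs, against 16.5, 7.62 and 6.07 CPM in D18N. Krt14, the partner of Krt5, had 0 and 0.779 CPM in p212fs, against 17.5, 9.27 and 4.99 CPM in D18N, while Krt18 had 4.36 and 2.70 CPM in p212fs, against 4.43, 2.90 and 1.87 CPM in D18N (adjusted p = 0.746) and overlapped. The lower count was 4 without p212fs replicate 1, p212fs replicate 2 or D18N replicate 1.

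Adipocyte genes had 5 lower and 1 higher of 14 tested, or 4 lower and 1 higher of the 11 with counts in both genotypes. Lpl, the lipase that frees fatty acids from lipoproteins, had 48.4 and 56.3 CPM in p212fs, against 822, 335 and 322 CPM in D18N (log2 fold change -3.24 ± 0.52). Cebpa, a fat cell factor, had 11.8 and 10.6 CPM in p212fs, against 38.2, 21.3 and 23.4 CPM in D18N. The lower count was 1 without p212fs replicate 1, 2 without p212fs replicate 2 and 8 with DESeq2 or with the 5 libraries alone, and the higher one, Pnpla2, had no call without p212fs replicate 1, p212fs replicate 2, D18N replicate 2 or D18N replicate 3, and none under the length offset; 2 were higher without D18N replicate 1. Endothelial genes had 3 lower and 0 higher of 14 tested, or 2 lower and 0 higher of the 12 with counts in both genotypes. The share of lower genes was near that of all genes. The smallest p was that of Cdh5, the junction cadherin of vessels, which is not among those 12. Cdh5 had 0.273 and 0.208 CPM in p212fs, against 2.84, 2.10 and 2.55 CPM in D18N. Pecam1, another vessel marker, had 0.545 and 0.830 CPM in p212fs, against 1.19, 0.626 and 0.624 CPM in D18N (adjusted p = 0.765). The endothelial list had 2 higher without Trex1-/- replicate 1 or 2 and 1 with the length offset.

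Neural and glial genes had 5 higher and 3 lower of 25 tested, or 4 higher and 2 lower of the 15 with counts in both genotypes, shares near those of all genes. Fabp7, of neural progenitors, had 16 and 11.9 CPM in p212fs, against 3.52, 2.45 and 2.10 CPM in D18N. Erbb3, of Schwann cells and their precursors, had 4.20 and 3.94 CPM in p212fs, against 31.1, 13.9 and 16.8 CPM in D18N. The list had 3 higher and 1 lower without p212fs replicate 1, 2 higher and 1 lower without p212fs replicate 2, 5 lower without D18N replicate 3 or Trex1-/- replicate 2 and with the length offset, and 7 lower without WT replicate 1. Myofibroblast genes had 5 higher and 4 lower of 30. Tpm1, a tropomyosin of contractile fibres, had 1835 and 1734 CPM in p212fs, against 724, 1022 and 989 CPM in D18N, and Des, the muscle filament desmin, had 47.7 and 74.8 CPM in p212fs, against 183, 205 and 178 CPM in D18N. Itga11, a collagen receptor chain, had 125 and 135 CPM in p212fs, against 318, 392 and 395 CPM in D18N. Acta2, smooth muscle actin, had 4257 and 4046 CPM in p212fs, against 817, 2178 and 2319 CPM in D18N (adjusted p = 0.0541) and did not pass. The higher myofibroblast genes numbered 1 with the length offset or without either p212fs library and 3 without D18N replicate 1, and the lower 2 without either p212fs library.

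Growth factor and imprinted genes closed the lists. Of 15 genes of the insulin-like growth factor system 7 were lower and 0 higher in p212fs, with a median log2 fold change of -1.13. Igfbp6, a binding protein, had 26 and 24.7 CPM in p212fs, against 85.3, 59.8 and 51.6 CPM in D18N. Irs2, a docking protein of the receptor, had 18 and 19.1 CPM in p212fs, against 44.1, 47 and 38.7 CPM in D18N. Htra1, a protease that cuts binding proteins, had 157 and 195 CPM in p212fs, against 325, 447 and 407 CPM in D18N. The groups did not overlap in these 3, and the lower members numbered 3 without p212fs replicate 1. With the length offset 1 member was higher.

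Imprinted genes had 9 lower and 5 higher of 29 tested. Nnat, a membrane protein of embryonic tissue, had 37.7 and 37.9 CPM in p212fs, against 9.94, 12.5 and 11.7 CPM in D18N (log2 fold change 1.73 ± 0.28). Kcnq1ot1, a long antisense RNA, had 7.31 and 5.71 CPM in p212fs, against 23.3, 22.9 and 24.2 CPM in D18N, and lost its call with the length offset (log2 fold change -0.16, adjusted p = 0.537). The lower imprinted genes numbered 3 with that offset, 3 without p212fs replicate 2 and 2 without p212fs replicate 1. Erythroid genes were near 0 in all libraries, with 4 of 16 tested and none passing (edgeR, adjusted p; Epor, the erythropoietin receptor, was at 1.31 and 1.35 CPM in p212fs, against 0.341, 0.910 and 0.737 CPM in D18N). The 5 tested sex-linked genes did not pass either, and D18N held both sex patterns. With the sex pattern as a term 3 of them were lower, and with DESeq2 1 was lower.

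Genes around Trex1 were set beside the rest of its chromosome. Within 10 Mb on either side 89 of 213 were called (41.8%), against 280 of 734 on the rest of chromosome 9 (38.1%). The shares within 5 Mb and 20 Mb were 45.1% and 41.7%. The count within 10 Mb was 30 without p212fs replicate 1, 38 without p212fs replicate 2 and 57 without D18N replicate 2.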

How the data were processed

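RNA-seq of MEFs was deposited by the authors as one table of raw counts per gene, not normalized. Per the labels' protocols, RNA was purified on RNeasy columns and went into a SMARTer mRNA kit. The submitters' processing notes name GRCm39, HISAT2, featureCounts and fastp; their settings, the strand setting and the annotation release are not given in the sources used here. Without a known strand setting, reads of overlapping and antisense genes cannot be told apart.

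The table had 55578 lines. The 1654 without a gene name, with 0.0804% to 0.129% of a library's reads, stayed out of library sizes and tests, and 1597 repeated a name and were kept as separate lines. All 11 libraries (16073955 to 21765536 counts) were fitted together with genotype as the only term in edgeR 4.0.16 (R 4.3.3; filterByExpr with a minimum count of 10, TMM scaling, robust quasi-likelihood test). P-values were adjusted over 16990 genes by Benjamini-Hochberg, with a threshold of 0.05. The biological coefficient of variation was 22.5% in common. A standard error (SE) is the size of the log2 fold change divided by the root of F, and is least exact at few counts. The scripts were tested on simulated counts. Alternatives used DESeq2 1.42.0, limma 3.58.1 (voom), other filters and scalings, and left out each library.

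The members and the 29 gene lists were chosen with earlier results of these data known. The naming rule takes Trex1, the 4 markers, the 10 genes of highest fold change and 6 of highest CPM difference in each direction (past the threshold, a mean of at least 5 CPM in a group, no overlap between libraries, no predicted or sex-linked genes, and 2-fold for the CPM difference), the 3 members of smallest p per list or the 2 most abundant where none passed, and Xist with the top Y-linked gene. Not all of the genes it takes are described. One of them is not reported here. Lengths, overlaps and coordinates came from GENCODE M21 (GRCm38), promoters from RefSeq (GRCm38.p6). Of 16990 genes 99.0% had a length. Replicate numbers name libraries only.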

Additional observations from a re-analysis of the deposited data

How the results depend on the processing

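With 1 library left out at a time, the genes called ran from 2674 to 7187, those higher in p212fs from 1390 to 3623, those lower from 1284 to 3619, and those called near Trex1 from 30 to 97. Over the same fits S phase genes higher ran from 7 to 36, other matrix genes lower from 21 to 40, ATF4 genes lower from 13 to 23 and macrophage genes higher from 8 to 19. The S phase count was 33 with only the 5 libraries. The log2 fold change of Ddx3y ran from -0.47 to 0.55 with a library left out. It was -0.49 with the sex pattern as a term and passed there (edgeR, adjusted p = 0.0453). The causes were not tested. Replicate numbers share only a name: deviations of same-numbered libraries correlated at 0.0099 and 0.063, and the replicate block gave 5930 calls. Of the 100 genes named by the rule and past the threshold, 90 stayed past it without any single library, 94 with the offset, 99 without D18N replicate 1, and 85 under every alternative. Depth limits genes of a few counts in a group, for which ratios have wide intervals.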
